A study of Mus musculus with 4 samples.

Results

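Rab genes encode small GTPases that mark the membranes of the secretory and endocytic routes. The genes described here are those whose symbol starts with Rab followed by a digit, Rabac, Rabep, Rabggt, Rabif or Rabgap. The table held 90 probes for 61 such genes, among 22534 probes and 12347 named genes in all. Expression was measured in NIH 3T3 cells, a mouse fibroblast line, on 4 two-colour arrays. On each of them, knockdown cells, carrying a construct in the pU6-m3 vector, gave the Cy5 channel and cells with the empty vector the Cy3 channel. The constructs target Selt, which encodes selenoprotein T, an endoplasmic reticulum protein with a thioredoxin-like fold. In the Selt mRNA the site of siSelT-1 spans nucleotides 205 to 224, and that of siSelT-5 spans nucleotides 971 to 989. There were 2 arrays for each construct, from separate cultures taken at different times, per the labels. Knockdown and vector cells were all selected in 150 µg/ml hygromycin B and grown with 10% serum and 100 nM sodium selenite. Whether a culture was 1 clone or a pool is not given in the sources used here, and Selt itself had no probe under its name and was not analysed here.

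A Rab protein cycles between a GDP-bound form in the cytosol and a GTP-bound form on a membrane. Exchange factors switch it on, GTPase activating proteins switch it off, GDP dissociation inhibitors carry it through the cytosol, and a geranylgeranyl transferase adds the lipid that holds it on the membrane. The GTP-bound Rab recruits effectors that move, tether or sort vesicles. Rab1 and Rab2 proteins act between the endoplasmic reticulum and the Golgi, Rab3, Rab8 and Rab27 proteins in transport to the cell surface, Rab5 proteins at early endosomes, Rab4 and Rab11 proteins in recycling and Rab7 at late endosomes.

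Values are log ratios of knockdown over vector, read as log2, so a positive value means more RNA in knockdown cells. The base and the direction rest on the range of the values, the titles and the dye labels, and a base of 10 is not excluded. Folds hold for a base of 2. A number in brackets that follows a call or a mean without a name is limma's adjusted p. Tests were confined to genes having at least 1 probe measured on all 4 arrays, averaged over such probes, which left 38 of the 61 genes. They comprised 11 secretory Rabs, 13 endocytic Rabs, 5 other Rabs and 9 partners. Over the probes measured on every array the medians were 0.19 and 0.09 with siSelT-1 and 0.43 and 0.36 with siSelT-5, so counts are also given with each array centred on that median. The arrays held 7689 and 9232 values with siSelT-1 and 20268 and 18361 with siSelT-5. Over all values of an array the medians were 0.18 and 0.06 with siSelT-1 and -0.22 and -0.19 with siSelT-5. The siSelT-5 medians above 0 thus belonged to the shared probes and not to the whole arrays. Arrays correlated at a Pearson's r of 0.844 within siSelT-1, 0.660 within siSelT-5 and 0.456 to 0.516 between constructs, across 4754 genes, which are not independent replicates. Of 12 fibroblast markers 8, Vim, Thy1 and Pdgfra among them, were measured on all arrays, as were 2 of 4 endothelial, 1 of 4 macrophage, 1 of 4 neuronal and 0 of 5 epithelial markers. A ratio does not tell a change in RNA per cell from a change in the mix of cells.

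Promoter sequences are shown for 3 members whose behaviour frames the results, the paralogs Rab5a and Rab5c, whose ratios stood on opposite sides of 0, and Rabac1, which had the highest ratio. They are the 250 bases before the start of the gene in the RefSeq annotation of GRCm38.p6, read on the strand of the gene. Rab5a lies on the plus strand, and the window is chr17:53478984-53479233. Rab5c lies on the minus strand at chr11:100738216-100738465, and Rabac1 on the minus strand at chr7:24972729-24972978. Capitals mark matches on either strand to CACGTG, an E-box, to TGACGTCA, the cAMP response element, and to TGACNNNGC, the core of the antioxidant response element.
Rab5a: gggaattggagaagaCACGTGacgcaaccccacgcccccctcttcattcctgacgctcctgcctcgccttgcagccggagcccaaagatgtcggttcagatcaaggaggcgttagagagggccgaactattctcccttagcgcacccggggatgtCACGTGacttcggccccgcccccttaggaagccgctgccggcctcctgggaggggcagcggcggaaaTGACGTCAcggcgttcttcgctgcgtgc
Rab5c: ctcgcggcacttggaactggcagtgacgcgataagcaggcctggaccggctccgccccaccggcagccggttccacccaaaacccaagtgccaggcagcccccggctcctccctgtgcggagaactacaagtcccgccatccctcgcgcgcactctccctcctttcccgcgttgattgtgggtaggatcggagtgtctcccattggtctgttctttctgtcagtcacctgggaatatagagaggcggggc
Rabac1: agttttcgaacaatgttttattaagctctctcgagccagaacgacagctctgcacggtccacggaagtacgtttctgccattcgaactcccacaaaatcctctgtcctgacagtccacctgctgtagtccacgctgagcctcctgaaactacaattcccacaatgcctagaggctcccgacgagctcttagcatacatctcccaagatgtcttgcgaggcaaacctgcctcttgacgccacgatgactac

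The window of Rab5a held CACGTG at 2 places and TGACGTCA at 1, with no overlap between them. No match to any of the 3 motifs lay in the windows of Rab5c or Rabac1. Rab5b, the paralog that fell like Rab5a, had no window at the start of its gene and is not shown. No other window of Rab5b held any of the 3 motifs. Of 32851 RefSeq windows of this length, 6.02% held CACGTG, 1.55% TGACGTCA and 10.2% TGACNNNGC. Among the 35 tested member genes with a promoter window, CACGTG was found in 2, Rab5a and the GTPase activating protein gene Rabgap1, and TGACGTCA in 2, Rab5a and Rab11fip3. TGACNNNGC was found in 7. A member gene was counted if any of its windows held the motif, also a window not at the gene start. The shares of the 32851 windows are per window, so the 2 are not counted alike. The matches are given as letters in the sequence, and binding was not measured.

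Both constructs together ask whether the mean ratio over siSelT-1 and siSelT-5 differed from 0. Among the tested members 14 rose and 4 fell, or 36.8% and 10.5% of 38, against 45.7% higher and 8.04% lower, 53.7% in all, over 4754 genes. The highest were Rabac1 and Rabep2, at 1.65-fold and 1.64-fold, and the lowest Rab11fip3 and Rab5a, at 0.621-fold and 0.655-fold. The median member ratio was 0.22, and that of all genes 0.25. After centring 3 members were higher and 9 lower, or 7.89% and 23.7%, against 20.5% and 21.9%, 42.4% in all, of all genes. Those that passed in 1 direction on both scales were 7, Rabac1, Rabep2 and Rab28 as higher and Rab11fip3, Rab5a, Rab5b and Rab18 as lower. With siSelT-1 replicate 1 left out, limma called 0 of all genes, and 12 members had an unadjusted p under 0.05. With siSelT-1 replicate 2 left out, it called 18.4% of all genes and 6 members, Rabac1, Rabep2, Rab28, Rab5c, Rab11fip3 and Rab5a.

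**Figure D1:**
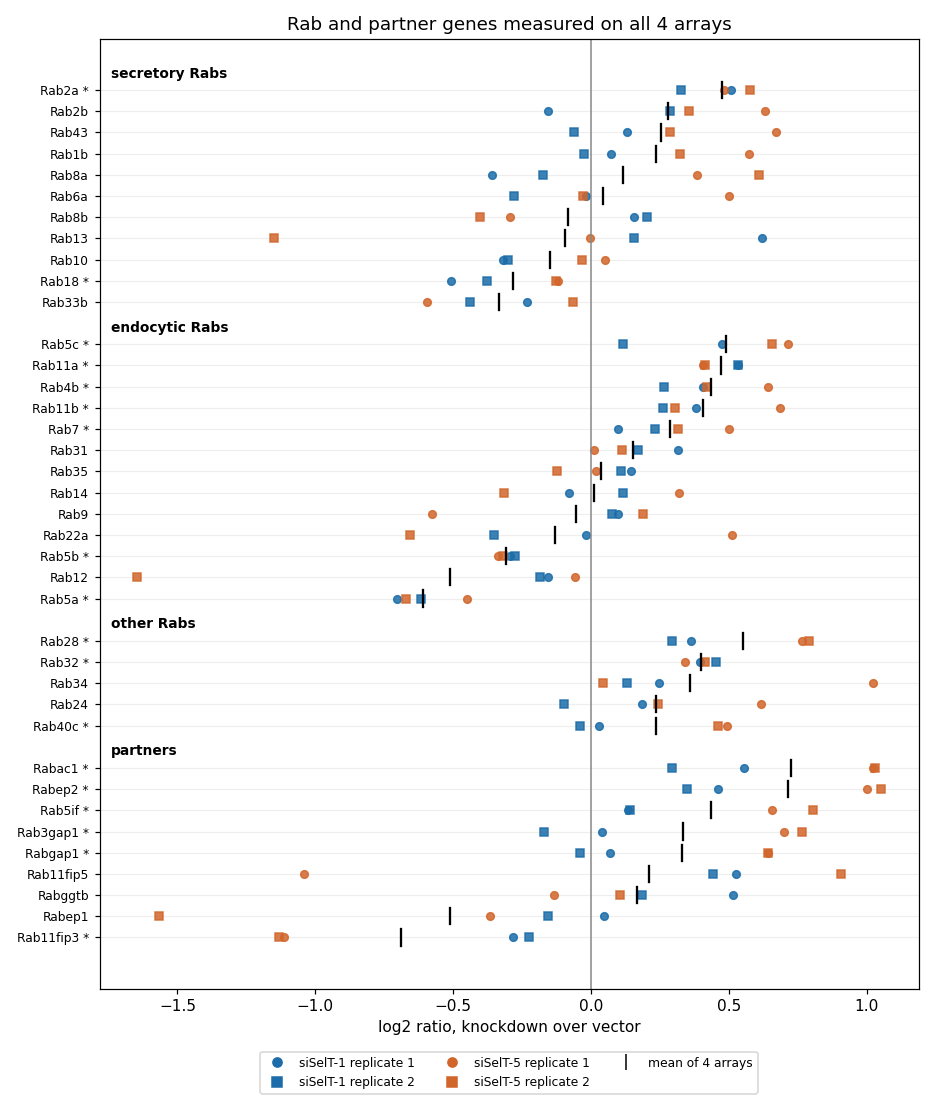
Log2 ratio of knockdown over vector (horizontal axis) for each of the 38 member genes measured on all 4 arrays, grouped by role and ordered by mean. Circles and squares are replicates 1 and 2, blue is siSelT-1 and orange siSelT-5, the black bar is the mean of 4 arrays, and an asterisk marks an adjusted p under 0.05 for both constructs together as deposited; Rabac1 and Rabep2 lie right of 0 on every array and Rab5a left of 0 on every array.

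Endocytic Rabs held 5 of the genes that rose and 2 of those that fell, out of 13, or 38.5% and 15.4%, against 45.7% and 8.04% of all genes. The early endosome Rabs split. Rab5a (Entrez Gene 271457) had log2 ratios of -0.70 and -0.62 with siSelT-1 and -0.45 and -0.67 with siSelT-5. All 4 values lay below 0 and the constructs overlapped, for a mean of -0.61 ± 0.11 (SD, n = 4; limma, adjusted p = 0.00302, or 0.0043 after centring). Rab5b (Entrez Gene 19344) stood at -0.30 and -0.28 with siSelT-1 and -0.34 and -0.32 with siSelT-5, again below 0 throughout, and fell with a mean of -0.31 ± 0.03 (adjusted p = 0.0177, centred 0.00562). Its 2 probes had means of -0.51 ± 0.30 and -0.11 ± 0.27 (SD, n = 4), and the first alone passed when probes were fitted singly (limma, adjusted p = 0.0193 and 0.484). On siSelT-5 replicate 1 they had opposite signs, at -0.95 and 0.27. The small SD of Rab5b and its values below 0 thus hold for the probe average. Rab5c (Entrez Gene 19345), the third gene of this subfamily, rose, with 0.48 and 0.12 with siSelT-1 and 0.71 and 0.66 with siSelT-5. Its mean was 0.49 ± 0.27 (adjusted p = 0.00787), and the rise was not called after centring (0.0724). Every Rab5c value lay above 0 and above every value of Rab5a and every probe average of Rab5b. Rab22a, another early endosome Rab, varied more between arrays than it differed from 0, at -0.02 and -0.35 with siSelT-1 and 0.51 and -0.66 with siSelT-5, with a mean of -0.13 ± 0.50.

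Of the recycling Rabs, Rab11a, Rab11b and Rab4b rose and lay above 0 on all arrays. Rab11a (Entrez Gene 53869), which directs traffic from the recycling endosome, had close replicates, with 0.53 and 0.53 with siSelT-1 and 0.41 and 0.41 with siSelT-5. Its mean was 0.47 ± 0.07 (SD, n = 4; adjusted p = 0.00451). Rab11b averaged 0.41 ± 0.19 and Rab4b, of the fast recycling route, 0.43 ± 0.15 (adjusted p = 0.0162 and 0.00867). After centring all 3 stayed above 0 and missed the threshold, at an adjusted p of 0.065, 0.223 and 0.116. Rab35, which acts at the plasma membrane and recycling endosomes, stood at 0.14 and 0.11 with siSelT-1 and 0.02 and -0.12 with siSelT-5, so the constructs did not overlap. Its mean of 0.04 ± 0.12 did not pass as deposited, and it was called as lower after centring, at -0.23 (0.0465). Rab14, between endosomes and Golgi, averaged 0.01 ± 0.27, and Rab31, between Golgi and endosomes, 0.15 ± 0.13. Neither passed on either scale.

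Late endosome Rabs gave mixed ratios. Rab7 (Entrez Gene 19349), needed for transport to lysosomes, rose to 0.29 ± 0.17 (SD, n = 4; adjusted p = 0.0304), with 0.10 and 0.23 with siSelT-1 and 0.50 and 0.31 with siSelT-5. It was not called after centring (0.856), where its mean was 0.02. The 3 probes of Rab7 averaged 0.12, 0.27 and 0.47, and the last alone passed when fitted singly (adjusted p = 0.00579). Rab9, which returns receptors to the Golgi, averaged -0.05 ± 0.35 and did not pass, and Rab12, which sorts receptors towards lysosomes, averaged -0.51 ± 0.76 (adjusted p = 0.133). For Rab12 the spread came from 1 array, since its values were -0.16 and -0.19 with siSelT-1 and -0.06 and -1.65 with siSelT-5.

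Secretory Rabs gave 1 gene that rose and 1 that fell out of 11, or 9.09% each way, against 45.7% higher and 8.04% lower of all genes. Rab2a (Entrez Gene 59021), which acts between endoplasmic reticulum and Golgi, rose, with 0.51 and 0.33 with siSelT-1 and 0.48 and 0.57 with siSelT-5. The constructs overlapped, and the mean was 0.47 ± 0.10 (SD, n = 4; adjusted p = 0.00575, centred 0.0715). Of the other Rabs of this step, Rab2b averaged 0.28 ± 0.33 and Rab1b 0.24 ± 0.27 (adjusted p = 0.0742 and 0.0604), both with siSelT-5 values above every siSelT-1 value. Of the 2 Rab1b probes, 1 passed as higher when fitted singly, at 0.38 ± 0.44, and the other averaged 0.10 ± 0.11 (adjusted p = 0.0216 and 0.378). The Golgi Rabs Rab6a and Rab43 averaged 0.04 ± 0.33 and 0.26 ± 0.31 and did not pass. Rab33b, a Golgi Rab also linked to autophagy, stood at -0.23 and -0.44 with siSelT-1 and -0.60 and -0.07 with siSelT-5, below 0 on every array. Its mean of -0.33 ± 0.23 missed the threshold as deposited (0.0513) and was called as lower after centring (0.0149).

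Rab18 (Entrez Gene 19330), found on lipid droplets and the endoplasmic reticulum, was called as lower at -0.28 ± 0.19 (SD, n = 4; adjusted p = 0.0258, centred 0.00678), but its 2 probes went opposite ways. The lower probe read -1.19 and -1.18 with siSelT-1 and -0.69 and -0.77 with siSelT-5, while the other read 0.17 and 0.43 with siSelT-1 and 0.45 and 0.51 with siSelT-5. Fitted singly both passed, at an adjusted p of 0.00184 as lower and 0.0140 as higher, so these data give no direction for the gene as a whole. The probe sequences were not used here, and which transcripts each detects was not tested.

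Rab8a and Rab8b, of transport to the cell surface, had ratios of opposite sign under the constructs, though neither difference passed. Rab8a (Entrez Gene 17274), which acts from the Golgi to the plasma membrane and in cilia, stood at -0.36 and -0.17 with siSelT-1 and 0.38 and 0.61 with siSelT-5. Both siSelT-1 values lay below 0 and both siSelT-5 values above it, a difference of -0.76 for siSelT-1 minus siSelT-5 (limma, adjusted p = 0.0585). Its close paralog Rab8b had the opposite signs on its tested probe, at 0.16 and 0.20 with siSelT-1 and -0.30 and -0.40 with siSelT-5, with a difference of 0.53 (adjusted p = 0.0761). With siSelT-5 alone Rab8a rose (adjusted p = 0.0188) and Rab8b fell (0.0391), and for both constructs after centring Rab8b was called as lower (0.0163). With siSelT-5 alone after centring, Rab8a stood at 0.10 and was not called (0.551), while Rab8b was lower at -0.74 (0.00847). The centred differences were -0.51 for Rab8a (0.174) and 0.78 for Rab8b (0.104). The siSelT-5 call of Rab8b was lost with the replicate block (0.0568), without either siSelT-1 array or siSelT-5 replicate 2, and when a further probe, at 0.60 on siSelT-5 replicate 1, was averaged in, where it stood at -0.12 (0.577). Rab13, of junction-directed transport, also had siSelT-1 values above the siSelT-5 values, at 0.62 and 0.16 with siSelT-1 and -0.0041 and -1.15 with siSelT-5 (adjusted p of the difference 0.149). Rab10, which delivers vesicles to the plasma membrane, averaged -0.15 ± 0.19, was not called as deposited (0.142) and was called as lower after centring (0.0102), with 1 probe at -0.45 and another at 0.15.

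**Figure D2:**
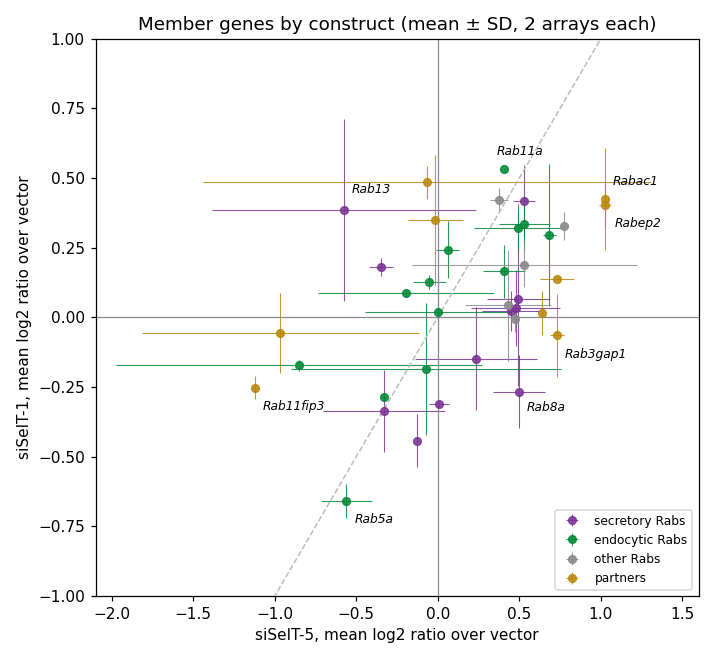
Mean log2 ratio over vector with siSelT-5 (horizontal axis) and with siSelT-1 (vertical axis) for the 38 member genes, with bars of 1 SD over the 2 arrays of each construct; the dashed line marks equal values. Rabac1 and Rabep2 stand near 1 with siSelT-5 and near 0.4 with siSelT-1, Rab5a lies close to the dashed line at -0.56 and -0.66, and Rab8a lies in the quadrant of opposite signs.

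Of 5 other Rabs, 3 rose and 0 fell, against 45.7% higher and 8.04% lower of all genes, and after centring 1 was higher and 0 lower, against 20.5% and 21.9%. Rab28 (Entrez Gene 100972), a Rab of cilia and photoreceptors, stood at 0.36 and 0.29 with siSelT-1 and 0.76 and 0.79 with siSelT-5 and rose to 0.55 ± 0.26 (SD, n = 4; adjusted p = 0.00308, centred 0.0257). Every value lay above 0, and the siSelT-5 values lay above the siSelT-1 values. A further Rab28 probe, lacking a value on siSelT-1 replicate 2, read -0.04 with siSelT-1 and -0.49 and -0.93 with siSelT-5, the opposite sign. When 1 array per construct sufficed and this probe was averaged in, Rab28 stood at 0.13 and was not called (0.287), and its siSelT-5 value was 0.035 (0.84). Rab32, of mitochondria and lysosome-related organelles, rose to 0.40 ± 0.05 (adjusted p = 0.00802), and Rab40c, which belongs to a ubiquitin ligase, to 0.24 ± 0.28 (0.0428). The Rab40c values were 0.03 and -0.04 with siSelT-1 and 0.49 and 0.46 with siSelT-5. After centring neither was called, and Rab40c turned to -0.03. With the replicate block Rab40c was not called (0.0609). Rab34, which positions lysosomes, averaged 0.36 ± 0.45 and Rab24, linked to autophagy, 0.24 ± 0.29, with neither called.

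Of 9 partners 5 rose and 1 fell, or 55.6% and 11.1%, against 45.7% higher and 8.04% lower of all genes. After centring 2 were higher and 2 lower, against 20.5% and 21.9%. Rabac1 (Entrez Gene 14470), the prenylated Rab acceptor, which binds lipid-carrying Rabs on membranes, had ratios of 0.55 and 0.29 with siSelT-1 and 1.02 and 1.03 with siSelT-5. All lay above 0, and the siSelT-5 values exceeded the siSelT-1 values, for a mean of 0.72 ± 0.36 (SD, n = 4; adjusted p = 0.0022, centred 0.00931). Its 2 probes gave 0.65 ± 0.36 and 0.79 ± 0.37, and each passed when fitted singly (adjusted p = 0.00281 and 0.00219). Rabep2 (Entrez Gene 70314), which encodes a Rab5 effector of the rabaptin family, stood at 0.46 and 0.35 with siSelT-1 and 1.00 and 1.05 with siSelT-5 and rose to 0.71 ± 0.36 (adjusted p = 0.00195, centred 0.00884). The related Rabep1, for rabaptin-5, went the other way with siSelT-5, at 0.05 and -0.16 with siSelT-1 and -0.37 and -1.57 with siSelT-5. It averaged -0.51 ± 0.72 and did not pass for both constructs (0.0742), though it fell with siSelT-5 alone (0.0313) and was called as lower for both after centring (0.0283). A further Rabep1 probe, with siSelT-5 values only, read -0.39 and 0.28.

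Rab11 effectors were low or split. Rab11fip3 (Entrez Gene 215445), which links Rab11 to recycling and to the last step of cell division, stood at -0.28 and -0.22 with siSelT-1 and -1.11 and -1.13 with siSelT-5. All values lay below 0 and the siSelT-5 values lay below the siSelT-1 values, and the mean fell to -0.69 ± 0.50 (SD, n = 4; adjusted p = 0.00196, centred 0.00413). A second Rab11fip3 probe had 1 value, -0.25 on siSelT-5 replicate 1, where the tested probe read -1.11. Rab11fip5 read 0.53 and 0.44 with siSelT-1 and -1.04 and 0.90 with siSelT-5, so its siSelT-5 arrays disagreed in sign and its mean of 0.21 ± 0.86 did not pass. Without siSelT-5 replicate 1 the siSelT-5 value of Rab11fip5 was 0.90 and passed, and without siSelT-5 replicate 2 its mean over both constructs was -0.28 and passed.

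Both tested members that encode parts of GTPase activating proteins rose. Rab3gap1, the catalytic subunit of the Rab3 GTPase activating protein, stood at 0.04 and -0.17 with siSelT-1 and 0.70 and 0.76 with siSelT-5 and rose to 0.33 ± 0.47 (SD, n = 4; adjusted p = 0.0182). Rabgap1 stood at 0.07 and -0.04 with siSelT-1 and 0.64 and 0.64 with siSelT-5 and rose to 0.33 ± 0.37 (0.0156). For both genes the siSelT-1 arrays lay on either side of 0 and the siSelT-5 values well above, and neither was called after centring (0.482 and 0.49). Rab5if, a Rab5 interacting factor, rose to 0.43 ± 0.35 (0.00677, centred 0.133), while Rabggtb, the beta subunit of the geranylgeranyl transferase, averaged 0.17 ± 0.27 and did not pass.

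By construct, siSelT-1 alone gave 1 member that rose and 1 that fell out of 38, against 10.3% higher and 3.37% lower, 13.7% in all, of all genes. These were Rab11a at 0.53 ± 0.0011 (SD, n = 2; adjusted p = 0.0374) and Rab5a at -0.66 ± 0.06 (0.0338). After centring Rab5a and Rab18 were called, both lower, against 3.83% higher and 5.07% lower, 8.90% in all, of all genes. Leaving out siSelT-1 replicate 1 or 2 left limma with 0 of all genes, and 1 or 2 members had an unadjusted p under 0.05. Leaving out either siSelT-5 array gave 16, and 43.9% of all genes. With the replicate block both calls were lost (0.0592 for Rab11a and 0.0537 for Rab5a). For siSelT-5 alone 18 members rose and 5 fell, against 47.6% higher and 6.29% lower, 53.9% in all, of all genes, or 47.4% and 13.2% of 38. After centring 3 were higher and 11 lower, or 7.89% and 28.9%, against 19.2% and 20.0%, 39.2% in all. The secretory Rabs Rab2a, Rab1b, Rab43, Rab2b and Rab8a rose with siSelT-5 and Rab8b fell, while 5 endocytic Rabs rose and 2 fell. After centring 0 of 11 secretory Rabs were higher and 5 lower, and 0 of 13 endocytic Rabs were higher and 4 lower. Without either siSelT-1 array 8 siSelT-5 calls were left, 7 higher and 1 lower, with 34.1% of all genes. Rabep2 and Rabac1 led at 1.03 ± 0.04 and 1.02 ± 0.01 (SD, n = 2), or 2.04-fold and 2.03-fold, and Rab11fip3 stood lowest at -1.12 ± 0.01 (0.00202).

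Set directly against each other, siSelT-1 minus siSelT-5 gave 0 members at an adjusted p under 0.05. Of all genes 0.0631% were called at that threshold, 0.0210% higher and 0.0421% lower, on either scale. As deposited, 11 members had an unadjusted p under 0.05, and the share of all genes at an unadjusted p was not counted. The smallest adjusted p was 0.0543, for Rab11fip3 at 0.87, followed by Rab3gap1 at -0.80 (0.0546) and Rab8a. Without siSelT-5 replicate 1 limma called 11 members and 37.8% of all genes, and without siSelT-5 replicate 2 it called 17 members and 37.6% of all genes. In 26 of 38 members the arrays of the constructs did not overlap, as in 64.5% of all genes, with siSelT-5 above siSelT-1 in 17 and siSelT-1 above siSelT-5 in 9, against 52.6% and 11.9% of all genes.

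Secretory and endocytic Rabs were set side by side as classes. Their median log2 ratios over the 4 arrays were 0.04 for 11 secretory and 0.04 for 13 endocytic genes, each below the 0.25 of all genes, and the classes differed by 0.01. On single arrays secretory minus endocytic was -0.12 and -0.18 with siSelT-1 and 0.06 and -0.14 with siSelT-5, with an SD of 0.11 over the 4 arrays and 3 of 4 differences below 0. The ranges of the genes overlapped almost fully, from -0.33 to 0.47 for secretory and from -0.61 to 0.49 for endocytic Rabs. Of the means by construct, siSelT-1 gave medians of 0.02 secretory and 0.13 endocytic, and siSelT-5 gave 0.24 secretory and 0.0023 endocytic. The siSelT-5 class difference by means, 0.23, was larger than on either siSelT-5 array, where 1 of 2 had the opposite sign. Called genes were 1 higher and 1 lower of 11 secretory and 5 higher and 2 lower of 13 endocytic Rabs, and after centring 0 and 4 secretory and 0 and 3 endocytic. With the Rabs of a single well known step alone, 6 secretory and 10 endocytic, the medians were 0.25 and 0.16. These are descriptions of measured genes, with no test, since members are not replicates.

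**Figure D3:**
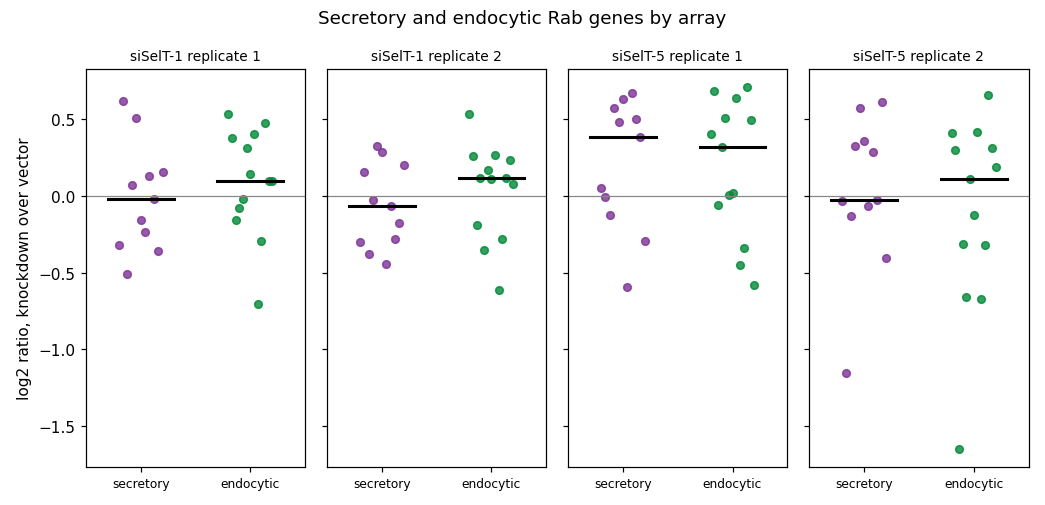
Log2 ratio of knockdown over vector (vertical axis) of 11 secretory and 13 endocytic Rab genes, in a panel for each array, with a point for each gene and a bar at the class median. The point clouds overlap on every array, and the secretory median lies above the endocytic one on siSelT-5 replicate 1 alone.

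Probes of the same gene were compared for the 10 members with more than 1 tested probe. In 4 of them, Rab9, Rab10, Rab18 and Rab24, the mean ratios of the probes had opposite signs. Rab9 had a probe at 0.39 ± 0.13 (SD, n = 4), higher when fitted singly (adjusted p = 0.0148), and another at -0.50 ± 0.81. Rab24 had a probe at 0.54 ± 0.22, also higher (adjusted p = 0.00471), and another at -0.06 ± 0.45. The low probe of Rab10, at -0.45 ± 0.19, passed as lower (0.0143). For Rab12 a probe at -0.56 ± 0.21 passed (0.00439), while the other read 0.04 and 0.06 with siSelT-1 and 0.48 and -2.45 with siSelT-5. With Rab9, Rab10, Rab18 and Rab24 left out, 14 members rose and 3 fell out of 34, against 45.7% higher and 8.04% lower of all genes.

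**Figure D4:**
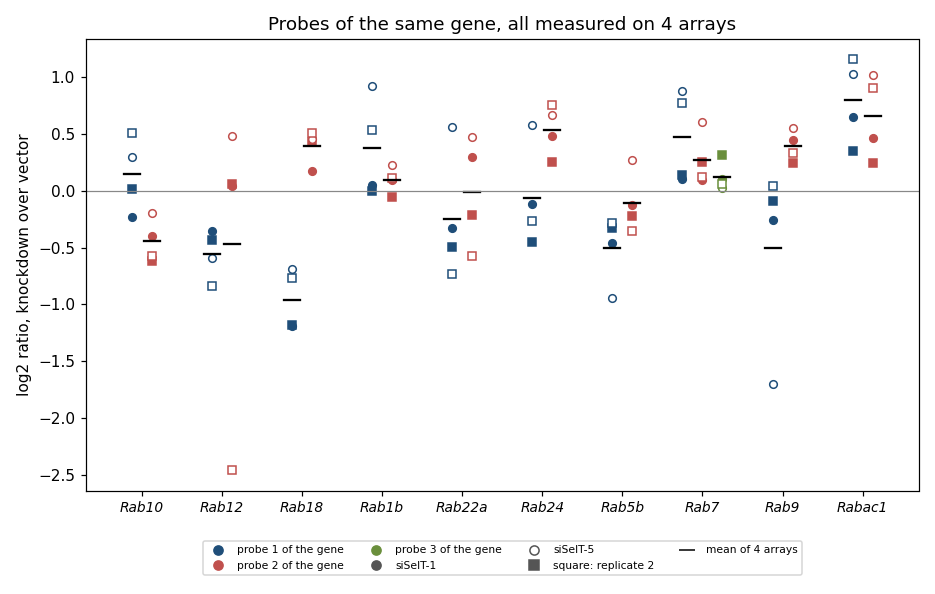
Log2 ratio of knockdown over vector (vertical axis) for the probes of the 10 member genes with more than 1 probe on all 4 arrays. Colours separate the probes of a gene, filled symbols are siSelT-1, open symbols siSelT-5, squares replicate 2, and bars mark the mean of 4 arrays; the Rab18 probes lie at -0.96 and 0.39, and both Rabac1 probes lie above 0 on every array.

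Probes with values on both siSelT-5 arrays and on no siSelT-1 array were kept apart. There were 21 of them for 18 member genes, 5 of which also had a tested probe. Of these probes 12 were lower and 0 higher, or 57.1% lower, against 40.4% lower and 1.17% higher, 41.6% in all, of 7460 such probes (limma on the siSelT-5 arrays, adjusted over these probes). They stood at a median of -0.86, and all such probes at -0.63. Centred on the median of such probes on each array, 2 were called, Rab37 and a probe of Rabgap1l, both lower, against 7.18% lower and 6.64% higher, 13.8% in all, of such probes.

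The lowest of the siSelT-5-only probes belonged to Rab37, a Rab of secretory granules, at -2.21 and -1.70 (mean -1.95 ± 0.36, SD, n = 2; adjusted p = 0.000246, centred 0.0183). Rabgap1l, which encodes a GTPase activating protein, had 3 such probes, at -1.55 and -1.80, at -0.89 and -2.02, and at -0.52 and -1.13, all below 0 and all called. The Golgi Rab gene Rab19 read -1.13 and -1.93, and Rab36 read -1.56 and -1.35. Rab42 read -0.92 and -1.79. At the other end Rab8a read 0.34 and 0.31 and Rab23, a Rab of Hedgehog signalling, 0.16 and -0.04, and neither was called. Rabep1, the 2 probes of Rabggta, Rab3ip, which encodes an exchange factor of Rab8, and Rabggtb had means between -0.06 and -0.52, also not called. For genes with probes of both kinds the readings could differ. Rab43 read -0.85 and -0.87 on this probe with siSelT-5, while its tested probe read 0.67 and 0.29. Rab8a read 0.38 and 0.61 on its tested probe, above 0 on both, and Rab8b -0.62 and -0.80 here against -0.30 and -0.40 on its tested probe. Of the other genes, Rab26, the Rab11 effector genes Rab11fip1 and Rab11fip2, and Rabif were called as lower, with means between -1.23 and -1.08, and Rab7b at -0.60 was not called.

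**Figure D5:**
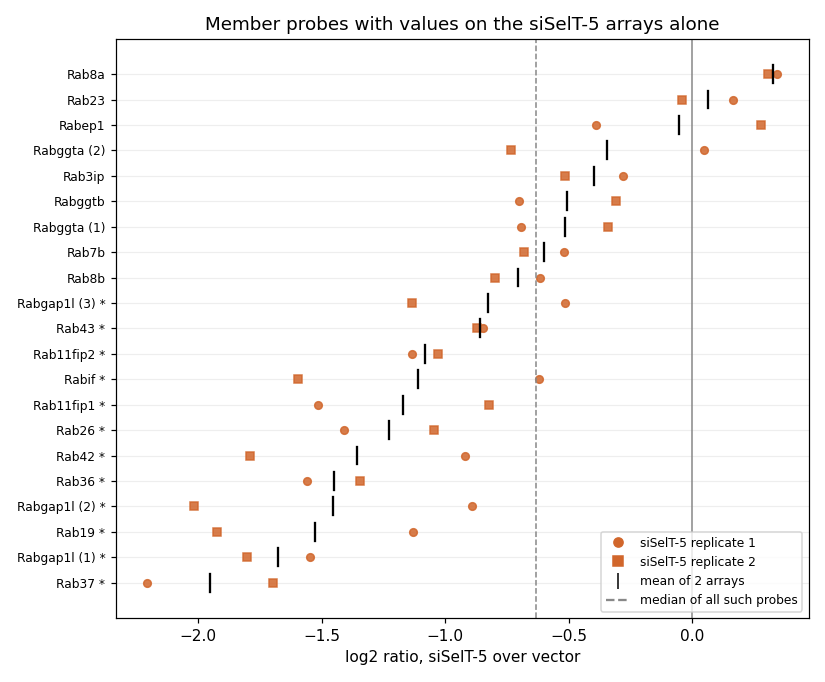
Log2 ratio of siSelT-5 over vector (horizontal axis) for the 21 member probes with values on the siSelT-5 arrays alone, ordered by mean; circles and squares are replicates 1 and 2, the black bar is their mean, the dashed line is the median of all 7460 such probes, and an asterisk marks an adjusted p under 0.05. Numbers in brackets tell apart probes of 1 gene, and Rab37 lies lowest at -1.95.

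A further 20 member probes had other patterns of missing values and entered no test. Among probes of genes with no tested probe, the highest belonged to Rabif, a Rab chaperone, at 0.49 and 0.30 with siSelT-1 and 0.76 on siSelT-5 replicate 1, whereas its siSelT-5-only probe read -0.62 on that array. A Rab21 probe averaged 0.28, another -0.39, and the Rab4a probe 0.09. The lowest probes of such genes were Rab11fip4 at -2.25, Rab17 at -2.16 and Rab26 at -1.38, each with 1 value, on siSelT-5 replicate 1. Among genes that also had a tested probe, Rab6a had further probes at 0.16 on siSelT-1 replicate 2 and at -1.17 and -1.15 on siSelT-5 replicate 1. Rab8b had 1 at -1.80 on siSelT-5 replicate 1 and another at 0.39 and 0.03 with siSelT-1 and 0.60 on siSelT-5 replicate 1, and a Rab22a probe averaged -0.34 over 3 arrays. The exocytic Rab genes Rab3a and Rab3d averaged -0.18 and -0.36 over 3 arrays, with siSelT-5 values of Rab3d on either side of 0. Rab6b, Rab27a and Rab29 read -1.21, -0.59 and -0.15 on siSelT-5 replicate 1 alone, and Rab27b read -0.56 on siSelT-5 replicate 2 alone.

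The other genes of the Rab cycle comprised 161 listed regulators and effectors, of which 50 were tested. Among these 18 rose and 6 fell, or 36% and 12%, against 45.7% and 8.04% of all genes. Their median log2 ratio was 0.08, and that of all genes 0.25. After centring 9 were higher and 18 lower, or 18% and 36%, against 20.5% and 21.9%. Of 21 effectors 10 rose and 2 fell, of 13 GTPase activating proteins 5 rose and 2 fell, and of 15 exchange factors 2 rose and 2 fell. After centring 5 effectors were higher and 6 lower, and 3 GTPase activating proteins were higher and 5 lower. Of the exchange factors 0 were then higher and 7 lower. Leaving out either siSelT-1 array lowered the number called among these genes, as it did among all genes.

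Those with the smallest unadjusted p included both directions. Vps18, a core subunit of the tethering complexes that serve Rab5 and Rab7, stood at -0.41 and -0.59 with siSelT-1 and -1.12 and -1.26 with siSelT-5 and fell to -0.84 ± 0.41 (SD, n = 4; adjusted p = 0.00168, centred 0.00413). Rph3a, for the Rab3 effector rabphilin, stood at 1.34 and 0.70 with siSelT-1 and 1.27 and 1.16 with siSelT-5 and rose to 1.12 ± 0.29 (0.00197, centred 0.00601). Vps18 was below 0 and Rph3a above 0 on every array. Gdi2, a GDP dissociation inhibitor and the only gene of its kind tested, stood at 0.14 and 0.11 with siSelT-1 and 0.86 and 0.98 with siSelT-5 and rose to 0.52 ± 0.46 (0.00372, centred 0.0426), with the siSelT-5 values well above the siSelT-1 values. Evi5l rose to 0.85 ± 0.25 and Tbc1d2b to 0.59 ± 0.32, both for GTPase activating proteins. Ehd1, an ATPase of recycling endosomes, rose to 0.63 ± 0.47, the exocyst gene Exoc2 to 0.60 ± 0.18 and Golga2, a Golgi matrix protein bound by Rab1, to 0.51 ± 0.27, and all 5 passed on both scales (centred adjusted p 0.0151, 0.0207, 0.0188, 0.0335 and 0.0493).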

How the data were processed

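The deposited table gives a log ratio of the channels of each of 4 two-colour arrays, read here as log2; the authors' log base, background correction, normalization, filter and whether arrays share vector RNA are not given in the sources used here, nor is any probe signal. Probes were named from the platform annotation, and the 90 member probes all matched an Entrez identifier in the GRCm38.p6 gene table, with 0 symbols changed. A single name was carried by 18129 probes, several by 140 and none by 4265. Genes were means of their probes with a value on all 4 arrays, 4754 in all. The tests used lmFit and eBayes of limma 3.58.1, run in R 4.3.3, for 2 construct means and 2 residual degrees of freedom, and p-values were adjusted by Benjamini-Hochberg over all genes, two-sided, with a threshold of 0.05. Adjusted p-values in the text are from limma. An SD over 4 arrays includes the gap between the constructs. The p beside it rests on the spread within each construct and does not measure that SD. Counts at an unadjusted p under 0.05 cover members alone. Shares of all genes beside them are at an adjusted p under 0.05. The fit was also run on simulated arrays with the same spread in both constructs and few changed genes. The deposited arrays differ from that setting, so the run does not show how well the fit holds here. The vector was measured only as the other channel of each ratio, with no replicate group of its own, and knockdown RNA carried the same dye throughout, so dye effects do not cancel; the number of arrays limits the precision.

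Members, classes and lists were chosen with earlier results of these data known. All 38 tested member genes are named; of other probes, the 6 highest and 6 lowest siSelT-5-only ones, the 3 highest and 3 lowest of the rest and those of tested genes; and the 8 pathway genes with the smallest unadjusted p. Further names were chosen after values were seen. The alternatives were centring, single probes, a looser filter on missing values, unnamed probes, robust eBayes, a replicate block, each array left out, and narrower classes; leaving out genes with opposite probes was added after seeing the data.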

Additional observations from a re-analysis of the deposited data

How the results depend on the processing

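Leaving out 1 array changed counts most. For both constructs such counts ran from 0 to 26 members, against 18 with all arrays, for siSelT-1 from 0 to 16, against 2, for siSelT-5 from 8 to 29, against 23, and for the difference from 0 to 17, against 0. For the other pathway genes they ran from 0 to 32, against 24. An arm left with 1 array was assumed to vary like the other. Where these counts rose or fell, the share of all genes called moved the same way, except in 1 fit. For siSelT-5 without siSelT-5 replicate 1, the member count fell while that share rose. Such shifts were thus not limited to the Rab genes. The class difference, secretory minus endocytic, ran from -0.226 to 0.0228 without 1 array and was -0.13 when 1 array per construct sufficed, against 0.01. With that looser filter limma called 0 members for siSelT-1, with 10 at an unadjusted p under 0.05. Centring moved the siSelT-5 count to 14 and that of siSelT-5-only probes to 2, against 12. It changed the sign of 32 of 152 member values over the 4 comparisons, 4 of which were called on either scale: Rab35 to -0.23 and Rab40c to -0.0306 for both constructs, and Rab10 to -0.39 and Rab32 to -0.0165 for siSelT-5. Leaving out siSelT-5 replicate 2 turned Rab11fip5 for both constructs to -0.28 (0.69 without replicate 1) and Rab22a for siSelT-5 to 0.51 (-0.66 without replicate 1), and leaving out siSelT-5 replicate 1 turned Rab11fip5 for siSelT-5 to 0.90 (-1.04 without replicate 2). With the replicate block 18 members were called for both constructs, 17 of them among the 18 called without it. That fit called 22 members for siSelT-5 and 0 for siSelT-1, with 11 at an unadjusted p under 0.05 for siSelT-1. The share of all genes called with the block or with the looser filter was not counted. The labels do not say that a number joins arrays of different constructs, and the deviations of same-numbered arrays correlated at 0.0758 across genes. Causes of these shifts were not tested beyond the construction of each alternative.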
